A study of Rattus norvegicus with 36 samples.

Results

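The genes described here encode the proteins of the cytosolic ribosome, 35 of its large subunit and 19 of its small subunit. They were chosen by name: a probe set was taken when the platform annotation gave it 1 gene symbol that begins with Rpl, Rplp or Rps followed by a number, or Rpsa. Mitochondrial ribosomal proteins, the S6 kinases and Rpl19l4 were left out. This gave 93 probe sets for 54 genes among 26202 probe sets on 3 chip types, 18178 of which carry 1 symbol, with 60 probe sets for the large subunit and 33 for the small one. A filter on dim probe sets left 85 of the 93 for testing, which cover 53 genes, since Rps15a had no probe set that passed. Another 51 probe sets carry a ribosomal protein symbol together with other symbols and are not counted as members. Rplp2, Rpl32, Rpl10, Rps4x and Rps27a had no probe set of their own by this rule.

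The ribosome joins amino acids into protein. Its small subunit reads the messenger RNA, and its large subunit holds the centre that forms peptide bonds and the tunnel through which the new chain leaves. Each ribosome needs its proteins in fixed proportions, and their messenger RNAs, which are short and abundant, are known to be controlled together, in part through mTORC1 at the level of translation. In sensory neurons ribosomes are found in the cell body and in the axon, and axon injury is known to change protein synthesis in both.

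Total RNA came from rat dorsal root ganglia, which hold the cell bodies of sensory neurons together with satellite glia, Schwann cells, vessels and resident immune cells. In spinal nerve ligation, a rat model of neuropathic pain, the L5 spinal nerve is tied off, so that the L5 ganglion holds injured neurons and the L4 ganglion holds neurons whose nerve was not ligated. There were 6 pools: ligated-side L5 ganglia, L4 ganglia of the ligated rats, and ganglia of sham-operated rats in which L4 and L5 were combined, each at 28 and at 50 days after surgery. The labels of 30 of the 36 arrays state 30 rats per pool; strain, sex and age are not given. Each pool was hybridised to 2 arrays of each RG_U34 chip type (A, B and C), so the arrays of a pool are technical replicates, and each condition has 1 pool per day. The sham pools are not matched to 1 ganglion level. On chip B the title of 1 sham array gives 28 days and its description 50 days; the title was followed.

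Signals are linear MAS5 intensities, and a difference is on the log2(signal + pseudocount) scale, where 1 is a doubling and the pseudocount (12.8 on chip A, 17.7 on B and 20.2 on C) makes differences of dim probe sets smaller. Where a gene had several probe sets, its brightest tested one is given. Ribosomal protein probe sets were bright: 65 of the 93 lay at or above the 90th percentile of signal on their chip. Of the 85 tested, 38 had a mean signal above 1000, against 813 of the other 15636. A signal also depends on the probes, so it does not rank one gene's messenger RNA above another's. Fewer cells of a type and less RNA per cell cannot be told apart in any of these pools.

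The start of a ribosomal protein messenger RNA is shown first, because it is a feature that the choice of genes did not use. Vertebrate ribosomal protein messenger RNAs are known to begin with a C and a run of C and T bases, the terminal oligopyrimidine tract through which mTORC1 and its target Larp1 act on their translation. RefSeq promoter entries of build GRCr8 were found for 48 of the 54 genes. A C at the annotated start followed by at least 4 more bases that are C or T was present in 18 of the 48 (37.5%), against 722 of all 27457 entries (2.63%), read on the gene's own strand. The windows below run from 15 bases before the start to 15 bases from it, 30 in all, with the tract in capitals where these letters hold one. The first 6 are shown as genes with the tract, and the last 3 because they had the largest 28-day differences described below and no tract in this window.
Rpl37a at chr9:81748076-81748105, plus strand: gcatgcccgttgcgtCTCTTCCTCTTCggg
Rpl19 at chr10:83519049-83519078, plus strand: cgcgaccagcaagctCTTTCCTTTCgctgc
Rplp1 at chr8:71290858-71290887, minus strand: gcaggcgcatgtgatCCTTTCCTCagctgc
Rps18 at chr20:4933730-4933759, plus strand: cacgtcacttccgctCTCTCTTCCacagga
Rpl9 at chr14:43247575-43247604, plus strand: gacgaaggacgttctCTCTTTgccccatct
Rplp0 at chr12:46718376-46718405, minus strand: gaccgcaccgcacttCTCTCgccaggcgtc
Rpl36a at chrX:102059434-102059463, plus strand: ccgcctataaacttccgttgctgctctagc
Rpl11 at chr5:153560788-153560817, minus strand: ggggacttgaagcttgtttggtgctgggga
Rps3 at chr1:163195762-163195791, minus strand: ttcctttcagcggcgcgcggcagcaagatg

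The tract was 12 bases long in Rpl37a, 10 in Rpl19, 9 in Rplp1 and Rps18, 6 in Rpl9 and 5 in Rplp0. An annotated start that lies a few bases away from the one a cell uses would not show the tract in this reading, so an absence here says only that these letters do not hold it. Between the L5 and sham pools of 28 days, the 18 tested genes with the tract had a median difference of 0.47 and the 29 without it 0.51, and these values lie close together. At 50 days the medians were -0.03 and 0.05.

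The main pattern in the data was a joint difference at 28 days. In the L5 pool of 28 days the brightest probe set of every tested ribosomal protein gene, 35 of 35 for the large subunit and 18 of 18 for the small one, stood above the sham pool of the same day. The median difference was 0.47 for the large subunit (1.39-fold) and 0.49 for the small one (1.41-fold), while that of all tested probe sets was 0.01. With the arrays scaled to their hybridisation controls instead, where the median of all tested probe sets moved to -0.34, 40 of the 53 genes were still above sham and all 53 lay above that median. By probe set, 34 of 85 members were at least 1.5-fold higher, against 10.2% of all tested probe sets, and none was at least 1.5-fold lower, against 9.73%. In 72 of the 85 both L5 arrays lay above both sham arrays, against 25.7% of all tested probe sets. With 1 pool per condition and day there is no test at 28 days alone, and these counts describe 2 pools.

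Seen array by array, the same 53 genes set 1 pool apart. Each gene's log2 signal was taken minus its mean over the 12 arrays of its chip type. The median of these deviations over both subunits was 0.52 and 0.46 on the 2 array sets of the L5 pool of 28 days. On the other 10 sets it lay between -0.26, in the L4 pool of 50 days, and 0.03, in the L4 pool of 28 days. Of the 53 genes, 45 had their highest pool mean in the L5 pool of 28 days, 31 of the large subunit and 14 of the small one. The other 8 were Rpl19, Rpl9 and Rps9, highest in the L4 pool of 28 days, Rpl7a, Rps10, Rps15 and Rps27, highest in the L5 pool of 50 days, and Rpl3l, highest in the sham pool of 50 days. Rps27 is named here because its place was seen in the data. No gene had its lowest value in the L5 pool of 28 days. The share of all tested probe sets with their highest or lowest pool there was not counted, so these counts describe the members only.

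**Figure D1:**
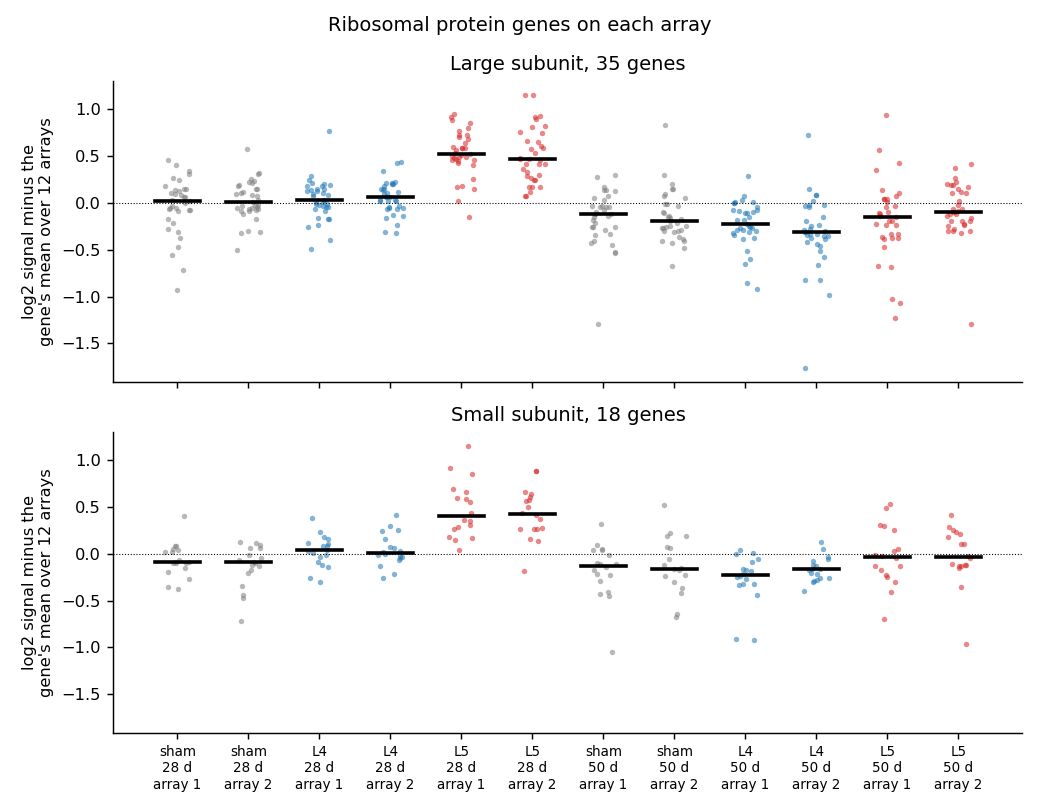
Deviation of each ribosomal protein gene from its own mean over 12 arrays (y axis, log2 signal), for each pool and array (x axis), with the 35 large subunit genes above and the 18 small subunit genes below. Each point is a gene and each black line a median; the 2 arrays of the L5 pool of 28 days have medians of 0.52 and 0.47 for the large subunit and 0.40 and 0.43 for the small one, while the other medians lie between -0.31 and 0.06.

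In the large subunit, Rpl11 and Rpl5 bind the 5S ribosomal RNA and, outside the ribosome, the p53 regulator Mdm2. Rpl11 had signals of 4295 and 6688 in the sham pool of 28 days, 3803 and 6174 in L4 and 10142 and 11911 in L5. At 50 days they were 4471 and 4799 in sham, 3392 and 4169.6 in L4 and 4133 and 5253 in L5. The L5 arrays of 28 days were thus higher than the other 10, which overlapped among themselves, and the difference of L5 from sham was 1.03 at 28 days and 0.01 at 50 days. Rpl5 was much dimmer, with 128 and 159.6 in sham, 135 and 112 in L4 and 270.0 and 264 in L5 at 28 days. At 50 days Rpl5 had 89.5 and 98.0 in sham, 100.3 and 104 in L4 and 100.4 and 157 in L5. The L5 arrays of 28 days again stood above all others, by 0.85 over sham, and at 50 days L5 was 0.38 above sham with both arrays higher.

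Rplp0 and Rplp1 form, with Rplp2, the stalk that brings translation factors to the large subunit. Rplp0 had 1934 and 1844 in sham, 1957 and 1978 in L4 and 2655 and 2671 in L5 at 28 days. At 50 days the sham arrays had 2143 and 1929, the L4 arrays 1825 and 1914 and the L5 arrays 919 and 2183. The groups of 28 days did not overlap with L5, a difference of 0.49, while at 50 days the 2 L5 arrays lay on either side of sham and disagreed more than any other pair of this gene. Rplp1 had 925 and 968 in sham and 1618 and 1607 in L5 at 28 days, a difference of 0.76. At 50 days it had 1464 and 1283 in sham and 1089 and 1088 in L5, a difference of -0.33 with no overlap, so L5 was above sham on one day and below it on the other.

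Among proteins around the exit tunnel, Rpl17, Rpl39 and Rpl4 did not share the common pattern of days to the same degree. Rpl39 had 1647 and 1075 in sham and 2001 and 1400.4 in L5 at 28 days, and 913 and 1115 against 1157 and 1727 at 50 days. The arrays overlapped at 28 days and not at 50 days, and the differences were 0.33 and 0.48. Rpl4 had 1392 and 1251 in sham and 1655 and 1273 in L5 at 28 days, which overlapped, and 1234 and 1349.7 against 728 and 1081 at 50 days, where L5 was lower and the difference was -0.53. Rpl17 had 219.6 and 262 in sham, 144 and 154 in L4 and 328 and 232 in L5 at 28 days, so that L4 was lowest and sham and L5 overlapped. At 50 days its L4 arrays, with 212 and 41.3, lay on either side of the sham arrays, and no level can be read from them.

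Rpl3, which lies next to the peptidyl transferase centre, had 7018 and 5321 in sham and 8724 and 10053 in L5 at 28 days, a difference of 0.61. At 50 days it had 5126 and 4240.5 in sham and 2591 and 4626 in L5, which overlapped, a difference of -0.43. Its paralogue Rpl3l, known from striated muscle, was dim, with a brightest probe set of 60.1 and 117 in sham and 122 and 129 in L5 at 28 days, and the other Rpl3l probe sets, with mean signals of 28.9 and 29.2, did not pass the filter. Rpl3l at 50 days had 97.3 and 199.9 in sham and 216 and 36.1 in L5, so its arrays of a pool disagreed by more than the pools did.

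Of the other large subunit genes, Rpl36a and Rpl7 had the largest 28-day differences beside Rpl11. Rpl36a had 419 and 1018 in sham, 909 and 1043 in L4 and 1285 and 1451 in L5 at 28 days. Its difference of 1.04 leaned on 1 sham array with the lower signal, and both L5 arrays still lay above both sham and both L4 arrays. The other tested Rpl36a probe set had -0.07 at 28 days and did not show the difference. Rpl7 had 851 and 1089 in sham, 1278 and 1603 in L4 and 1919 and 1868 in L5 at 28 days, a difference of 0.96. At 50 days Rpl7 had 892 and 960.1 in sham, 904 and 867 in L4 and 1219 and 1358 in L5, a difference of 0.47, so both L5 pools were above sham and L4. Rpl13a, often used as a reference gene in quantitative PCR, had 934 and 690.3 in sham and 1415 and 1378 in L5 at 28 days and 1079.9 and 892 against 756 and 1186 at 50 days. Its differences were 0.79 and -0.05, and those of its other probe set 0.15 and -0.28. The brightest Rpl6 probe set had 0.60 and 0.43 at 28 and 50 days, while the other 2, with -0.52 and -0.64, were below sham at 50 days. Rpl41, the shortest ribosomal protein, had 0.46 and 0.59. Rpl23 had 0.54 and 0.19, and Rpl37a had 0.45 and -0.10.

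The smallest 28-day differences of the large subunit were 0.13 for Rpl19, 0.14 for Rpl4, 0.15 for Rpl27 and 0.16 for Rpl36. Rpl27 is named here because its place was seen in the data. Rpl19 had 3092 and 3076 in sham, 3627 and 3553 in L4 and 2889 and 3934 in L5 at 28 days, and the L5 arrays lay on either side of the others. Rpl36 had 918 and 887 against 998 and 1016 at 28 days and 854 and 1113 against 788 and 740.4 at 50 days. L5 lay just above sham on the first day and below it on the second, by -0.35, without overlap on either day.

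**Figure D2:**
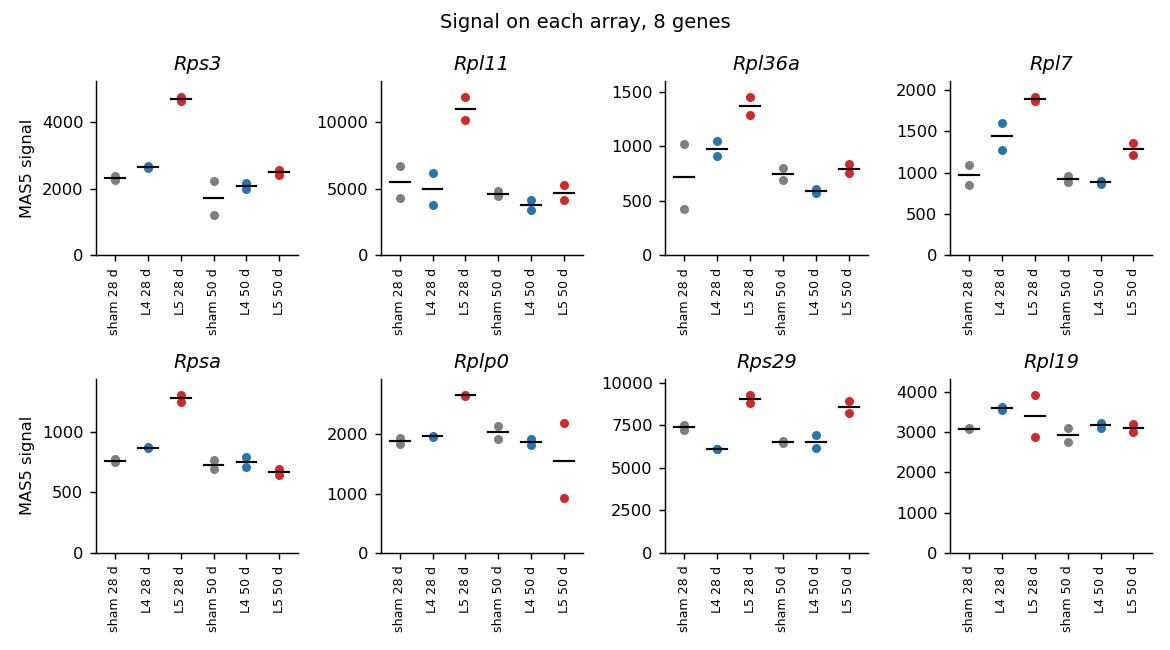
MAS5 signal (y axis, linear, from 0) on each array of the 6 pools (x axis) for 8 genes, with points for the 2 arrays of a pool and a black line at their mean. Rps3, Rpl11, Rpl36a, Rpl7, Rpsa and Rplp0 have their highest pool at L5 of 28 days; the L5 arrays of 28 days of Rpl19 lie on either side of the L4 arrays, and Rps29 is high in both L5 pools.

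In the small subunit, Rps3, Rps20, Rps29, Rps10, Rps15 and Rps18 sit in the head, which holds the messenger RNA as it enters and leaves the decoding site. Rps3 had 2262 and 2387 in sham, 2693 and 2626 in L4 and 4766 and 4651 in L5 at 28 days. The 50-day arrays of Rps3 had 1199 and 2238 in sham, 2006 and 2164 in L4 and 2556 and 2427 in L5. Both L5 pools lay above sham and L4 of their day, by 1.01 and 0.60 over sham, and the L5 arrays of 28 days stood apart from all others. The other 2 Rps3 probe sets had 0.76 and 0.96 at 28 days but 0.09 and 0.17 at 50 days. Rps20 had 2429.9 and 2520.3 in sham and 4685 and 3958 in L5 at 28 days, and 2217 and 1616 against 2547 and 2797 at 50 days. Its differences were 0.79 and 0.49, again with no overlap on either day.

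Rps29 had 7547 and 7222 in sham, 6100.3 and 6103 in L4 and 9319 and 8802 in L5 at 28 days. Its 50-day arrays read 6583 and 6482 in sham, 6155 and 6912 in L4 and 8942 and 8231 in L5. On this probe set L5 was nearly as high at 50 days as at 28 days, with differences from sham of 0.39 and 0.29. The dimmer Rps29 probe set had 0.73 at 28 days and -0.20 at 50 days, so the 2 probe sets disagreed on the later day. The brightest Rps15 probe set had 996 and 836 in sham against 1094 and 932 in L5 at 28 days, and 992 and 1119 against 1494 and 1415 at 50 days. The 28-day arrays overlapped and the 50-day ones did not, with differences of 0.14 and 0.46. The other 2 Rps15 probe sets ran the other way, with 0.27 and 0.51 at 28 days and -0.14 and 0.11 at 50 days. Rps10 had 248 and 193 in sham, 356 and 332 in L4 and 368 and 395 in L5 at 28 days, and here L4 and L5 were both above sham. Rps18, a common reference gene, had 2133 and 1853 in sham, 2618 and 2489.8 in L4 and 2913 and 3089 in L5 at 28 days, and no 2 of these pools overlapped.

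Rpsa, Rps6, Rps3a, Rps9, Rps21 and Rps24 lie in the body and platform of the small subunit. Rpsa, also known as the laminin receptor precursor, had 773 and 751 in sham, 873 and 866 in L4 and 1251 and 1309 in L5 at 28 days. Its 50-day signals were 765 and 695 in sham, 792 and 713 in L4 and 694 and 644 in L5. L5 stood apart at 28 days, by 0.74 over sham, and was the lowest pool at 50 days on this probe set. The other Rpsa probe set had 0.63 at 28 days and 0.46 at 50 days, so they disagreed on the later day. Rps6, the substrate after which the S6 kinases are named, had 2830.0 and 2881 in sham, 2751 and 2604 in L4 and 4304 and 3763 in L5 at 28 days, a difference of 0.49. At 50 days its pools lay closer, with 2171 and 2161 in sham and 2276 and 2449 in L5, a difference of 0.12.

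Rps9 had 781 and 794 in sham, 1172 and 1068 in L4 and 1095 and 1083 in L5 at 28 days, so both ganglia of ligated rats lay above sham. At 50 days it had 921 and 1028 in sham and 547 and 805 in L5, a difference of -0.54. Rps24 had 598 and 656 against 994 and 939 at 28 days and 460.1 and 484 against 606 and 571 at 50 days, above sham on both days by 0.61 and 0.31. The differences at 28 and 50 days were 0.39 and 0.00 for Rps3a, 0.49 and 0.05 for Rps21, and 0.40 and -0.17 for Rps28.

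At 50 days the genes no longer stood together. Of the 53 genes, 31 were above sham in L5 and 22 below, with medians of 0.01 for the large subunit and 0.09 for the small one. With arrays centred on their medians the count above sham was 15, where all tested probe sets had a median of -0.14. The count was 36 with quantile normalization. When scaled to hybridisation controls it was 2, where the median of all tested probe sets was -0.55. By probe set, 8 of 85 were at least 1.5-fold higher (13.4% of all tested) and 2 at least 1.5-fold lower (10.2% of all tested). The largest 50-day difference was that of Rpl30, 1.02, from sham arrays of 74.9 and 142 to L5 arrays of 306 and 162. The lowest was that of Rpl9, -0.62, from 839 and 929.5 to 393 and 813, while a dim Rpl9 probe set had 0.49. The arrays of L5 disagreed widely in both genes.

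**Figure D3:**
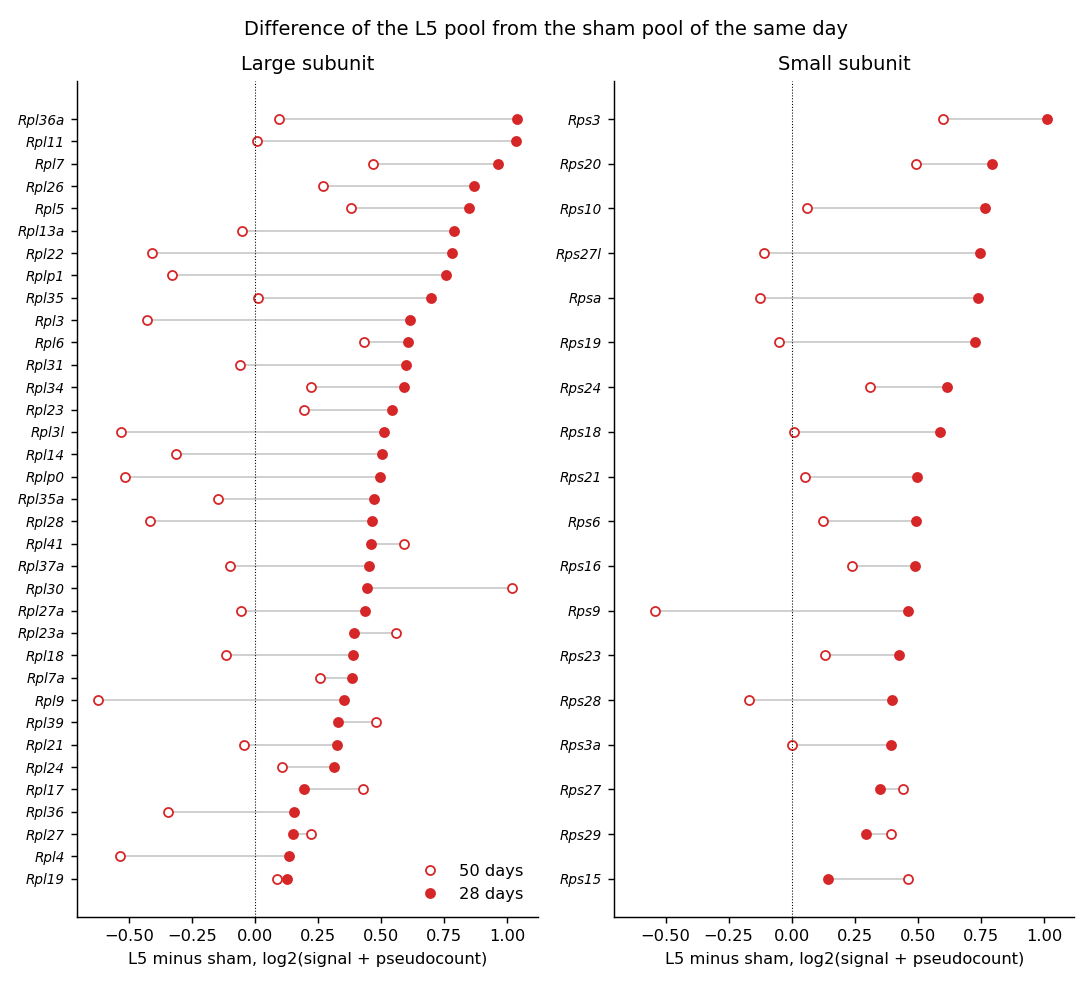
Difference of the L5 pool from the sham pool of the same day (x axis, log2(signal + pseudocount)) for each of the 35 large and 18 small subunit genes (y axis), at 28 days (filled) and 50 days (open). With the deposited scaling all 28-day points lie to the right of 0, from 0.13 for Rpl19 to 1.04 for Rpl36a, and the 50-day points spread from -0.62 to 1.02; scaled to hybridisation controls, 40 and 2 of the 53 lie to the right of 0.

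The 2 days of a condition can be tested together only as if they were replicates. In the limma fit of all 6 pools with condition and day as terms, 0 of the 85 member probe sets passed an adjusted p of 0.05 for L5 against sham, against 0.782% of all tested probe sets. At an unadjusted p under 0.05 the fit held 21 of the 85 higher (7.42% of all tested probe sets) and 0 lower (9.47%). The lowest adjusted p in limma for this comparison was 0.097, for Rps3, with a fitted difference of 0.81 ± 0.19 (SE, 2 pools against 2). Next came Rpl7 at 0.72 ± 0.19 and Rps20 at 0.64 ± 0.17, with limma adjusted p of 0.125 and 0.1265. The fitted medians were 0.22 for the large subunit and 0.31 for the small one, 0.035 for all tested probe sets, and turned to -0.30 and -0.18 when arrays were scaled to hybridisation controls, where all tested probe sets had -0.44. Of the 53 genes, 47 had a fitted difference above 0. The other 6 were Rpl4 (-0.20), Rpl9 (-0.13), Rpl36 (-0.10), Rplp0 (-0.01) and Rpl3l (-0.01) in the large subunit and Rps9 (-0.04) in the small one.

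The limma fit treats a gene that differs at 28 days alone as one whose pools disagree, which widens its error. Without the L5 pool of 50 days, 3 of 85 member probe sets passed (3.53%), all higher, close to the 3.95% of all tested probe sets that passed in that fit (1.66% higher). That fit drops the L5 pool that disagreed and leaves L5 with 1 pool, which is assumed to vary like the other groups, so its calls are no test of the 28-day difference. Leaving out the L4 pool of either day gives nearly the same fit for L5 against sham, which then rests on the sham and L5 pools alone. The calls of those fits are not given here. With the 12 arrays of each chip as separate values and the pool as a random block, 9 members passed (10.6%), all higher, against 7.08% of all tested probe sets (2.12% higher). Scaled to hybridisation controls, 1 passed (1.18%), and it was lower, against 18.2% of all tested probe sets.

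L4 ganglia of ligated rats did not stand apart from sham in the same direction on both days. At 28 days 32 of the 53 genes were above sham, with medians of 0.06 for the large subunit and 0.18 for the small one, and at 50 days 16 of 53, with -0.12 and -0.07. Scaled to hybridisation controls, where all tested probe sets had medians of 0.37 and 0.03, the counts were 52 and 13. By probe set, 4 of 85 were at least 1.5-fold higher at 28 days (5.27% of all tested) and 2 at 50 days (4.83%), and 4 were at least 1.5-fold lower on each day (4.36% and 4.55%). At 28 days both L4 arrays lay above both sham arrays in 41 of 85 (20.9% of all tested) and below in 20 (22.8%). At 50 days they lay above in 12 (19.1% of all tested) and below in 34 (18.9%). In the limma fit 0 members passed, as did 0 of all 15721 probe sets (0%), and 2 members, Rpl17 and the dimmer Rpl9 probe set, were lower at an unadjusted p under 0.05 and 0 higher, where 1.17% and 1.54% of all tested probe sets were. Every limma adjusted p of L4 against sham was 0.9995 for the members. The largest fitted differences were 0.30 for Rpl6 and 0.27 for Rps3, and the lowest -0.54 for Rpl17, -0.50 for Rpl22 and -0.40 for Rpl27a.

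Rpl27a showed how much of L4 came from 1 day. Its L4 arrays had 2817 and 2825 against sham arrays of 2542 and 2775 at 28 days, and 1278 and 1364 against 2473 and 2403 at 50 days. The L4 pool of 50 days was low, by -0.88, while that of 28 days was 0.09 above sham. Rpl22, which binds RNA outside the ribosome as well, was low in L4 on both days, with 1779.9 and 2522 and 1906 and 1180.2 against sham arrays of 2595 and 2807 and 2159.5 and 2612. At 28 days Rpl22 had its highest signals in L5, 4093 and 5256.

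Injured L5 was also set directly against the neighbouring L4 of the same rats. At 28 days 49 of 53 genes were higher in L5, with medians of 0.43 and 0.47 for the large and small subunits, and at 50 days 35 of 53, with 0.16 and 0.24. Scaled to hybridisation controls the signs turned, with 9 and 3 genes higher, and the members then lay 0.34 and 0.17 above the medians of all tested probe sets, which were -0.72 and -0.59. By probe set, 23 of 85 were at least 1.5-fold higher at 28 days (11.9% of all tested) and 8 at 50 days (14.1%), and none was 1.5-fold lower on either day (11.2% and 10.5%). In limma 0 of 85 passed, against 1.29% of all tested probe sets, and 22 were higher at an unadjusted p under 0.05 (8.44% of all tested) with 0 lower (10.9%). The lowest limma adjusted p was 0.076, for a dim probe set of Rpl23a with a fitted difference of 0.96 ± 0.23, and the brighter Rpl23a probe set had 0.64 ± 0.18 with a limma adjusted p of 0.099. Rpl23a, which lies at the tunnel exit, is named because its place was seen in the data. Without the L5 pool of 50 days, which again leaves L5 with 1 pool assumed to vary like the other groups, 4 members passed in limma (4.71%), all higher, against 5.03% of all tested probe sets (1.97% higher).

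Between 28 and 50 days the genes were lower on the later day, most of all in L5. In L5 49 of 53 genes were lower at 50 days, with medians of -0.61 for the large and -0.63 for the small subunit. In L4 47 of 53 were lower, with -0.32 and -0.23, and in sham 35 of 53, with -0.16 and -0.09. Scaled to hybridisation controls the counts lower were 50, 52 and 23 in L5, L4 and sham, so that the direction in sham turned, where all tested probe sets had a median of 0.15. By probe set, 30 of 85 were at least 1.5-fold lower at 50 days in L5 (14.2% of all tested), 13 in L4 (4.78%) and 5 in sham (6.55%), while 1, 0 and 5 were at least 1.5-fold higher (17.9%, 5.64% and 7.79%). In limma 0 of 85 passed for day, against 0.286% of all tested probe sets, with 28 lower (8.94% of all tested) and 2 higher (9.76%) at an unadjusted p under 0.05. The lowest limma adjusted p was 0.114, for Rpl9, at -0.75 ± 0.19. Leaving out a sham or L4 pool leaves that condition with 1 pool, which the fit then follows exactly. Day then rests on the other 2 conditions, whichever pool of the pair is dropped. Such fits are thus nearly the same fit, and their calls are not given here.

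Age and time after surgery run together in the comparison of days and cannot be told apart. The probe set annotated as Rps27l, a paralogue of Rps27, had the lowest fitted day difference, -0.82 ± 0.24. Its signals were 1143 and 949 in L5 of 28 days against 411 and 254 at 50 days, and in sham 679 and 557 against 382 and 321. Both L5 and sham were lower on the later day without overlap. In L4 the arrays of the 2 days overlapped, with 499 and 487 against 509 and 454, a difference of -0.03. Among the genes' brightest probe sets that of Rps15 had the highest fitted value, 0.34, with L5 arrays of 1094 and 932 at 28 days and 1494 and 1415 at 50 days. The other 2 Rps15 probe sets had fitted day differences of the opposite sign, -0.19 and -0.14. The brightest Rpl7a probe set, for the large subunit, had 0.17 and the other -0.09.

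Genes with several probe sets allowed the 28-day pattern to be read more than once. Of 22 genes with 2 or more tested probe sets, 18 had all of them above sham in L5 at 28 days. At 50 days 11 of the 22 had tested probe sets on both sides of sham, so the 50-day value of a gene depends on the probe set read. Over all 85, 81 probe sets were above sham (51.2% of all tested probe sets were), and the 4 below were 1 each of Rpl21, Rpl36a, Rpl9 and Rps6. In Rpl11 the 3 probe sets gave differences of 1.03, 0.34 and 0.39, and in Rpl6 they gave 0.60, 0.37 and 0.53. The 4 probe sets of Rpl21 gave 0.32, 0.76, 0.00 and 0.03, so that 2 of them showed next to nothing. Rps6 was the widest case at 28 days, with 0.92 in 1 probe set and -0.57 in a dim one whose L5 arrays read 105 and 119.9 against 196 and 159 in sham. Probe sets of this family can also bind messenger RNA of close paralogues, and gene names rest on the annotation.

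The 28-day difference was present at each signal level and on each chip type. Members with a mean signal above 1000 had a median of 0.49 (38 probe sets), and other probe sets in that range had -0.10. Between 300 and 1000 it was 0.50 (34 probe sets) against -0.08, and up to 300 it was 0.39 (13 probe sets) against 0.04. At 50 days the members also lay above other probe sets of like signal. Their medians were 0.01 above 1000, 0.08 between 300 and 1000 and 0.49 up to 300. Other probe sets had -0.25, -0.14 and 0.10 in the same ranges. On chips A, B and C the member medians were 0.46, 0.60 and 0.59, on arrays that were hybridised separately with RNA of the same pool. Between the 2 arrays of a pool, members had a median absolute difference of 0.14 in L5 of 28 days and 0.23 in L5 of 50 days. In L5 of 28 days 1 of 85 members differed at least 1.5-fold between arrays (17.8% of all tested probe sets). In L5 and L4 of 50 days 10 and 11 did (20.2% and 16.6% of all tested).

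**Figure D4:**
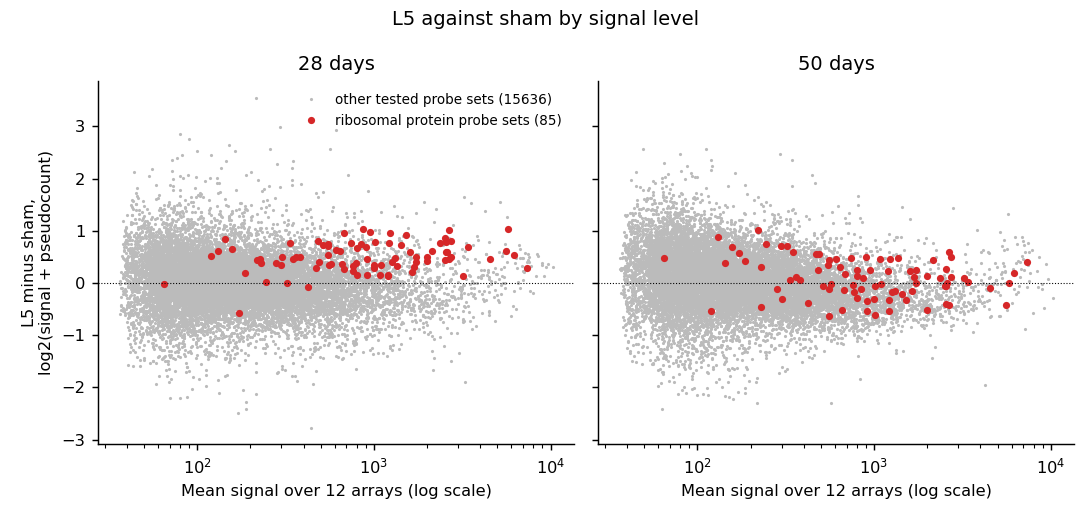
Difference of L5 from sham (y axis, log2(signal + pseudocount)) against mean signal over 12 arrays (x axis, log scale) for the 15636 other tested probe sets (grey) and the 85 ribosomal protein probe sets (red), at 28 days on the left and 50 days on the right. With the deposited scaling, 81 of the 85 red points lie above 0 at 28 days, at all signal levels, and 50 at 50 days.

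The 51 probe sets with several symbols, of which 48 passed the filter, are not counted above. Their median was 0.47 at 28 days, with 44 of 48 above sham (51.2% of all tested) and 15 at least 1.5-fold higher (10.2%). At 50 days their median was -0.09, with 16 of 48 above sham (52.6% of all tested). The medians of the member genes stand beside these at 0.49 and 0.05. At 50 days 50 of the 85 member probe sets were above sham, so the 2 kinds of probe set differed on the later day.

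Other genes of protein synthesis were taken from lists and set beside the members for L5 against sham. Fau and Rack1, proteins of the small subunit with other symbols, had a 28-day median of 0.49 and a 50-day median of -0.07, and 0 of 2 passed in limma. Mitochondrial ribosomal proteins, which serve the separate ribosome of that organelle, had medians of -0.09 and -0.29, with 25 of 68 genes above sham at 28 days and 0 passing in limma. Furthest from 0 was Mrpl14, at -1.52 ± 0.29 with a limma adjusted p of 0.054. Translation initiation factors were taken by an Eif symbol, which also brings in regulators such as Eif2ak3 and Eif4ebp1. These 47 genes had -0.02 and -0.18, with 0 passing higher and 1 lower in limma. That 1 was Eif1b, a factor of start codon choice, at -1.07 ± 0.17 with a limma adjusted p of 0.028. Its pool means were 1528 in sham and 767 in L5 at 28 days, and 1625 and 735 at 50 days.

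Elongation factors were taken by symbol, which also brings in other genes. One is the kinase Eef2k, the highest of the list at 28 days (1.25). The genes of this list had medians of 0.20 and 0.00. Of these, 8 of 9 were above sham at 28 days and 0 passed for L5 against sham in limma. Eef1a1, the general form of the factor that delivers aminoacyl-tRNA, had 28-day pool means of 1243 in sham and 1786 in L5, a difference of 0.51. Eef1a2, the form known from neurons and muscle, had 1044 and 576, a difference of -0.90, and it passed in limma for L5 against L4 at -0.84 with an adjusted p of 0.046. The 2 forms thus stood on opposite sides of sham; Eef1a1 is named because its place was seen in the data. Ribosome biogenesis genes had medians of 0.02 and -0.01, with 24 of 47 above sham at 28 days and 0 passing in limma. Ddx10, an RNA helicase, was furthest from 0, at -1.17 ± 0.29 with a limma adjusted p of 0.097. Genes of mTORC1 and the S6 kinases had -0.34 on both days, with 5 and 4 of 19 above sham and 0 passing in limma for L5 against sham. Akt1s1, an mTORC1 inhibitor, passed in limma for L5 against L4 at -1.05, with an adjusted p of 0.043.

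Markers of the cell types a ganglion pool can hold were read beside the members, since the L5 pool of 28 days also stood apart in some of them. Of 16 macrophage markers on the arrays, 12 were tested, and in L5 at 28 days all 12 were above sham and 10 at least 1.5-fold so, with a median of 1.15. Their summed signal was 2295 in sham, 2209 in L4 and 6180 in L5 at 28 days, and 2005, 1782 and 2263 at 50 days. Skeletal muscle markers had a 28-day median of 1.77, with 10 of 12 above sham and a summed signal of 1156 in sham, 1944 in L4 and 3964 in L5, and at 50 days 2295 in sham, 2295 in L4 and 2583 in L5. The defining markers Acta1 and Ckm were at 187 and 86.8 in sham and at 1491 and 353 in L5 of 28 days. No marker read 0, since MAS5 gives every probe set a signal. The part of macrophages and of muscle in the ribosomal protein values was not tested.

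Schwann cell markers had medians of 0.40 and 0.21 and a summed signal of 17868 in sham, 16714 in L4 and 22576 in L5 at 28 days, and 21503, 18902 and 23879 at 50 days. Neuronal markers, which check the tissue, were bright, with a summed signal of 45509 in sham, 44888 in L4 and 39828 in L5 at 28 days and 53615, 48743 and 46464 at 50 days. Their medians in L5 against sham were -0.35 and -0.45, with 4 of 13 above sham on either day. Satellite glia markers had medians of -0.18 and -0.44 over 7 genes, T cell markers 0.22 and 0.61 over 3, and blood cell markers 0.30 and 0.12 over 7. As a measure of RNA quality, the ratio of the 3′ to the 5′ Gapdh control probe set was read over the 3 chip types. It ran from 5.66 to 11.9 in sham, 2.90 to 6.88 in L4 and 3.47 to 5.85 in L5 at 28 days. At 50 days it ran from 5.10 to 8.52 in sham, 4.92 to 6.61 in L4 and 2.99 to 5.13 in L5. The same ratio for the actin control overlapped widely between sham and L5 on both days. It ran from 4.345 to 5.69 in sham and 2.95 to 5.175 in L5 at 28 days. At 50 days the actin ratio ran from 3.28 to 5.74 in sham and 3.16 to 5.47 in L5. Within a chip type, both sham arrays had a higher actin ratio than both L5 arrays on A and C at 28 days. The same held on A and B at 50 days, while chip B at 28 days and chip C at 50 days overlapped. The part of these cell types and of RNA quality in the ribosomal protein values was not tested.

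**Figure D5:**
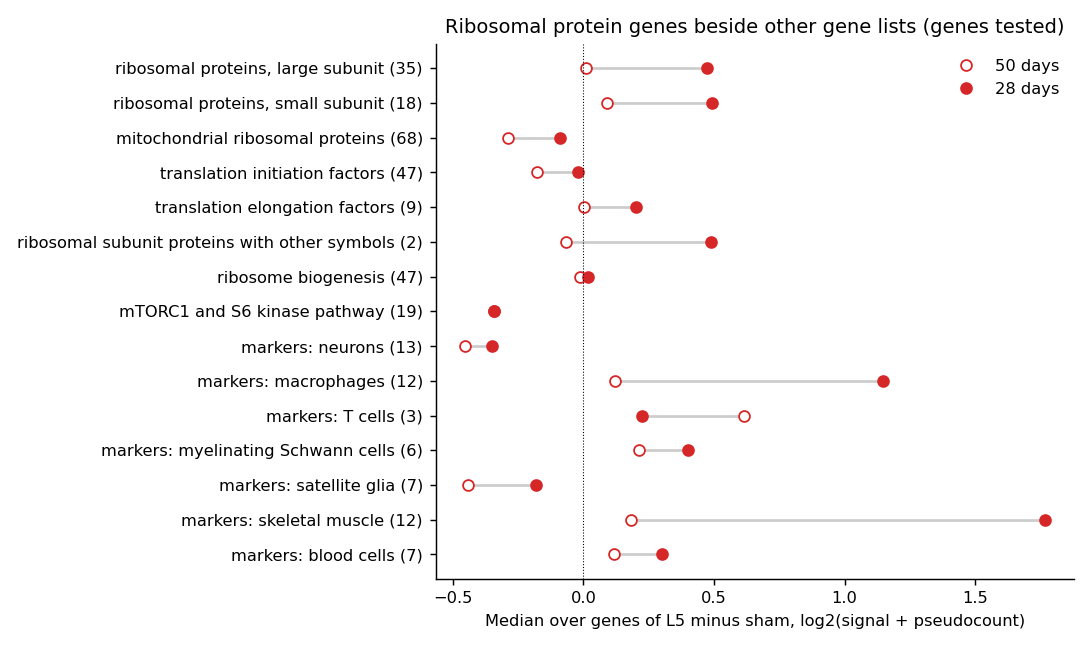
Median over genes of the difference of L5 from sham (x axis, log2(signal + pseudocount)) at 28 days (filled) and 50 days (open), for both ribosomal subunits and for the other gene lists and cell type markers (y axis, with the number of genes tested). With the deposited scaling both subunits stand at 0.47 and 0.49 at 28 days and near 0 at 50 days; macrophage and muscle markers, at 1.15 and 1.77 at 28 days, have the largest shift between the days.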

How the data were processed

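Total RNA of rat dorsal root ganglion pools was measured on 36 Affymetrix arrays, 12 of each of 3 chip types. The deposited values are intensities on a linear scale, made by the authors. The submitters' processing notes name MAS5, of which version and settings are not given in the sources used here. The trimmed mean (2% off each end) is near 150 on every array, so all values are relative to that mean of their array. Symbols came from the platform annotation; members and gene lists were chosen with earlier results of these data known.

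The deposited signals were used as log2(signal + pseudocount), with the 20th percentile of the chip type as pseudocount. Probe sets under the 40th percentile of mean log2 signal on their chip were left out, and 15721 of 26202 remained. The 2 arrays of a pool were averaged. Each chip type was fitted over its 6 pools with condition and day as terms, 2 residual degrees of freedom, by limma 3.58.1 (lmFit, eBayes with trend) in R 4.3.3, with Benjamini-Hochberg adjustment across the chip types together and a threshold of 0.05. The fit was tested on simulated data. Where nothing says that pools of different days are separate replicates of a condition, these p-values measure the spread between pools and days. Within a day no test was possible. Summaries and figures used Python 3.11.15, pandas 2.3.3, numpy 2.4.6 and matplotlib 3.10.9. The number of arrays limits the precision.

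The rule named, per subunit, the 3 genes highest and the 3 lowest in each comparison of conditions and the 2 and 2 for day, any member past the threshold, the 5 brightest and 5 dimmest probe sets, the 3 genes whose probe sets differed most, a set list of well-known members, and in other lists up to 3 genes that passed or the 2 furthest from 0. Alternatives were other scalings, pseudocounts, filters, arrays as units, other probe sets and leaving out each pool.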

Additional observations from a re-analysis of the deposited data

Results flagged for a closer look

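Several genes lay on one side of sham on both arrays at 28 days and on the other side on both arrays at 50 days. Only genes named by the rule are listed. Others that did so include Rpl28 and Rpl14 in L5 and Rpl14 and Rps16 in L4. The share of all tested probe sets that changed side in this way was not counted, so these lists are no result about the members. The difference between days was not tested, since each condition has 1 pool per day. In L5 the 50-day value was -0.055 for Rpl27a (0.44 at 28 days), -0.347 for Rpl36 (0.16), -0.621 for Rpl9 (0.35), -0.328 for Rplp1 (0.76), -0.544 for Rps9 (0.46) and -0.124 for Rpsa (0.74). Other probe sets of Rpl9 and Rpsa had 0.49 and 0.46 at 50 days.

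In L4 the 50-day value was -0.878 for Rpl27a (0.09 at 28 days), -0.179 for Rpl9 (0.52), -0.12 for Rplp0 (0.06), -0.342 for Rplp1 (0.37) and -0.421 for Rps10 (0.62). It was -0.259 for Rps18 (0.36), -0.3 for Rps3a (0.27) and -0.214 for Rps9 (0.50). Rps24 and Rps27l went the other way, with 0.446 at 50 days (-0.18 at 28 days) and 0.444 (-0.31). The other tested probe set of Rpl9, a dim one, was below sham in L4 on both days, with -0.76 at 50 days (-0.51).

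Ribosomal protein probe sets that the annotation gives several symbols, which the comparisons left out, had a median of 0.471 for L5 against sham at 28 days.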

How the results depend on the processing

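The sign of the fitted medians depended on the scaling. Scaled to hybridisation controls, L5 against sham gave medians of -0.30 and -0.18 for the large and small subunits with 1 of 85 members called (0 higher; 18.2% of all tested probe sets), L4 against sham 0.13 and 0.22, L5 against L4 -0.39 and -0.37 with 10 called (0 higher; 42.8% of all tested), and day 2 called (1.73%). Within days, that scaling gave L5 against sham a median of 0.15 at 28 days and -0.62 at 50 days with 2 genes higher. Median centring gave fitted medians of 0.070 and 0.10 for L5 against L4. The 50-day count of genes higher in L5 then went from 35 to 24 and the median of the genes from 0.20 to -0.04. With that centring all tested probe sets had a median of -0.16 in this comparison, and 31 of the 53 genes lay above it. For L5 against sham at 50 days median centring left 15 genes higher, where all tested probe sets had a median of -0.14. These scalings within days were added after seeing the data. With 12 arrays and the pool as a random block, 9, 10 and 15 members were called for L5 against sham, L5 against L4 and day (10.6%, 11.8% and 17.6%), against 7.08%, 8.78% and 6.53% of all tested probe sets. With array number as replicate block as well, the counts were 7, 8 and 12 (8.24%, 9.41% and 14.1%), against 6.17%, 7.47% and 5.03%. Array numbers did not pair the samples: correlations between pools of the difference of array 1 from array 2 ran from -0.10 to 0.11 over 45 pairs (median 0.01). Leaving out 1 pool at a time, members called ranged from 0 to 3 for L5 against sham, 0 to 4 for L5 against L4 and 0 to 7 for day, with shares of all tested probe sets from 0.197% to 3.95%, 0.712% to 5.03% and 0.439% to 2.89%. An arm left with 1 pool is assumed to vary like the other groups. The fit follows that pool exactly, so dropping either pool of a condition leaves nearly the same fit for the other conditions. These counts are therefore not separate results. The L4 against sham medians then ranged from -0.25 to 0.10 for the large subunit and from -0.17 to 0.17 for the small one. The L5 against L4 medians ranged from 0.097 to 0.56 for the large subunit and from 0.17 to 0.48 for the small one, highest without the L5 pool of 50 days. In each case the cause was not tested. Of 44 named probe sets, 36 turned sign under at least 1 setting. With 1 pool per condition and day, the arrays of a day show technical spread only.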
